A study of Mus musculus with 16 samples.

Results

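The transcripts of the Janus kinases Jak1, Jak2, Jak3 and Tyk2 and of the signal transducers Stat2, Stat3, Stat5a, Stat5b and Stat6 were examined, which are 9 of the 23337 rows of the count table. The rule that picks them uses the symbol and no measured value, and it was written with earlier results of these data known. They were measured by bulk RNA-Seq of amplified cDNA in neutrophils of 8-week-old C57/Bl6 mice, enriched from blood with magnetic beads that remove other cells. Both genotypes carried the floxed Ltbr allele. LTβRΔN mice (Ltbrfl/fl x Mrp8-Cre) also carried a Cre transgene driven by the Mrp8 promoter, which deletes the receptor in neutrophils, and controls were littermates without Cre. The column names of the LTβRΔN libraries also name GFP and those of the controls do not. Between genotypes, Cre, GFP and the deletion therefore cannot be told apart. Of the control libraries 3 are labelled unstimulated and 4 stimulated, and of the LTβRΔN libraries 4 and 5. By the protocol, neutrophils were cultured for 2 h with 100 ng/ml TNF, 50 ng/ml IL-6 and 100 ng/ml GM-CSF, and soluble LIGHT, a ligand of the receptor, was added at 500 ng/ml or left out. The design text instead names the cytokines as what was present or absent. No label gives the addition of LIGHT for a single library, so the groups are called stimulated and unstimulated as they are labelled. Neither is it stated that each library came from its own mouse, and p-values therefore measure the spread between these libraries, which may be technical.

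Janus kinases sit on the inner tails of cytokine receptors. When a cytokine brings receptor chains together, the kinases phosphorylate one another, the receptor and the STAT proteins that dock there, and paired STAT proteins move into the nucleus and bind DNA. IL-6 acts through gp130, which is served mainly by Jak1, Jak2 and Tyk2 and activates Stat3, whereas the beta chain of the GM-CSF receptor depends on Jak2 and activates the Stat5 proteins. Stat2 is a subunit of the complex formed after type I interferon, and Stat6 acts after IL-4 and IL-13.

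Counts per library ranged from 1094335 to 11932653, and 3 libraries, all LTβRΔN, held fewer than 2000000. Levels are given as CPM, counts relative to the library total after scaling by TMM factors. The factors moved with treatment, from 1.03 to 1.14 in unstimulated and from 0.916 to 0.951 in stimulated libraries. Summed neutrophil markers ranged from 47173 to 77388 CPM with 9 of 10 listed genes in the table. Those of B cells reached at most 4.16 CPM with 5 of 8 at 0 in every library, and those of T and NK cells at most 16.4 CPM with 3 of 10 at 0. Monocyte markers summed to between 685 and 995 CPM, platelet markers to between 6.23 and 208 CPM and immature neutrophil markers to between 40.0 and 764 CPM, the last 2 highest in control stimulated replicate 3. Cish, a target of STAT5, was higher in all stimulated libraries by a log2 fold change of 8.60 (edgeR adjusted p = 2.68e-11) in control and 8.05 (edgeR adjusted p = 1.36e-11) in LTβRΔN neutrophils. Ltbr was lower in LTβRΔN than in control neutrophils, with a log2 difference of -3.80 without (edgeR adjusted p = 0.000109) and -3.71 with stimulation (edgeR adjusted p = 3.83e-05). In bulk RNA, fewer cells of a type and less RNA per cell cannot be told apart.

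All 9 genes passed the filter on low counts, which kept 9213 genes. Per kilobase of annotated exons, the mean level over the 16 libraries was highest for Stat6 (86.6 CPM per kb), followed by Jak1 (48.0), Stat3 (41.6), Stat5b (21.4) and Jak2 (11.02). Jak3 (4.53 CPM per kb), Stat2 (3.23), Stat5a (2.23) and Tyk2 (1.70) formed the low end. Stat6 was above Jak1 in 16 of 16 libraries and Stat3 above Stat5b in 16. Stat5b was above Jak2 in 14 and Jak2 above Jak3 in 15 of 16. Jak1 was above Stat3 in 14 of 16, by 0.21 ± 0.17 (SD, n = 16) on the log2 scale. At the low end neighbours crossed more often, with Jak3 above Stat2 in 11, Stat2 above Stat5a in 13 and Stat5a above Tyk2 in 12 of 16 libraries. Each of these mean log2 ratios was below its SD over libraries, which describes neighbours only. Genes further apart in this order were not compared. Using the longest transcript in place of all exons put Stat6 at 101, Jak1 at 70.7 and Stat3 at 65.6 CPM per kb and left the order of the 9 genes as it was.

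The genes lie on 6 chromosomes of GRCm38, by the GENCODE M21 annotation. Jak2 runs from 29251828 to 29313080 on the forward strand of chromosome 19, none of its exon bases is shared with another gene and none of its 50-base exon windows recurs in another gene's exons. Jak1 lies on chromosome 4 from 101152367 to 101265282, Jak3 on chromosome 8 from 71676296 to 71690575 and Tyk2 on chromosome 9 from 21104068 to 21131243. Stat6 (127642986 to 127660957) and Stat2 (128270559 to 128292849) are on chromosome 10, and Stat5b (100780731 to 100850724), Stat5a (100859351 to 100885169) and Stat3 (100885098 to 100939540) stand in a row on chromosome 11, where Stat5a and Stat3 overlap by 72 exon bases on opposite strands.

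The 250 bases before the RefSeq start (assembly GRCm38.p6) are shown for Jak2, the gene called with stimulation, and for Stat2, the gene whose window held the most of the motifs searched. The Jak2 window is chr19:29251553-29251802 and the Stat2 window chr10:128270248-128270497, both on the forward strand, and capitals mark motif matches.
Jak2: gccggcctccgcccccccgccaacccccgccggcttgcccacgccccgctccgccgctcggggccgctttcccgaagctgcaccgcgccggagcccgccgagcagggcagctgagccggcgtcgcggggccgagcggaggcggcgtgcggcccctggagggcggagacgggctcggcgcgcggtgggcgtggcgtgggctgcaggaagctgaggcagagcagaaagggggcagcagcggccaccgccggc
Stat2: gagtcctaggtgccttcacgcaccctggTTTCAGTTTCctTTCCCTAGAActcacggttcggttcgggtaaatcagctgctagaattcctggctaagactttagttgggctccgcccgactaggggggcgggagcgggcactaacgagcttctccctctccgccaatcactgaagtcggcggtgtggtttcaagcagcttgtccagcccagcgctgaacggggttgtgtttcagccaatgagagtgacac
Both strands were searched for the STAT motif TTCNNNGAA, its STAT6-type form with 1 more N, the CRE TGACGTCA, the AP-1 motif TGANTCA, the interferon response element (ISRE) and the NF-kB motif, and no matches of different motifs overlap in the Stat2 window. Over 32851 promoter windows of the same length, these letters occurred in 7.02%, 5.85%, 1.55%, 6.75%, 2.98% and 3.9%. The Jak2 window held no match to the letters of any of the 6, and the Stat2 window held an ISRE match at -222 and a STAT6-type match at -210 from the start. Jak1 had 1 CRE match at -101, and 1 of the 2 Stat5a windows an NF-kB match at -234. A match is a run of letters and not a site shown to be bound.

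**Figure D1:**
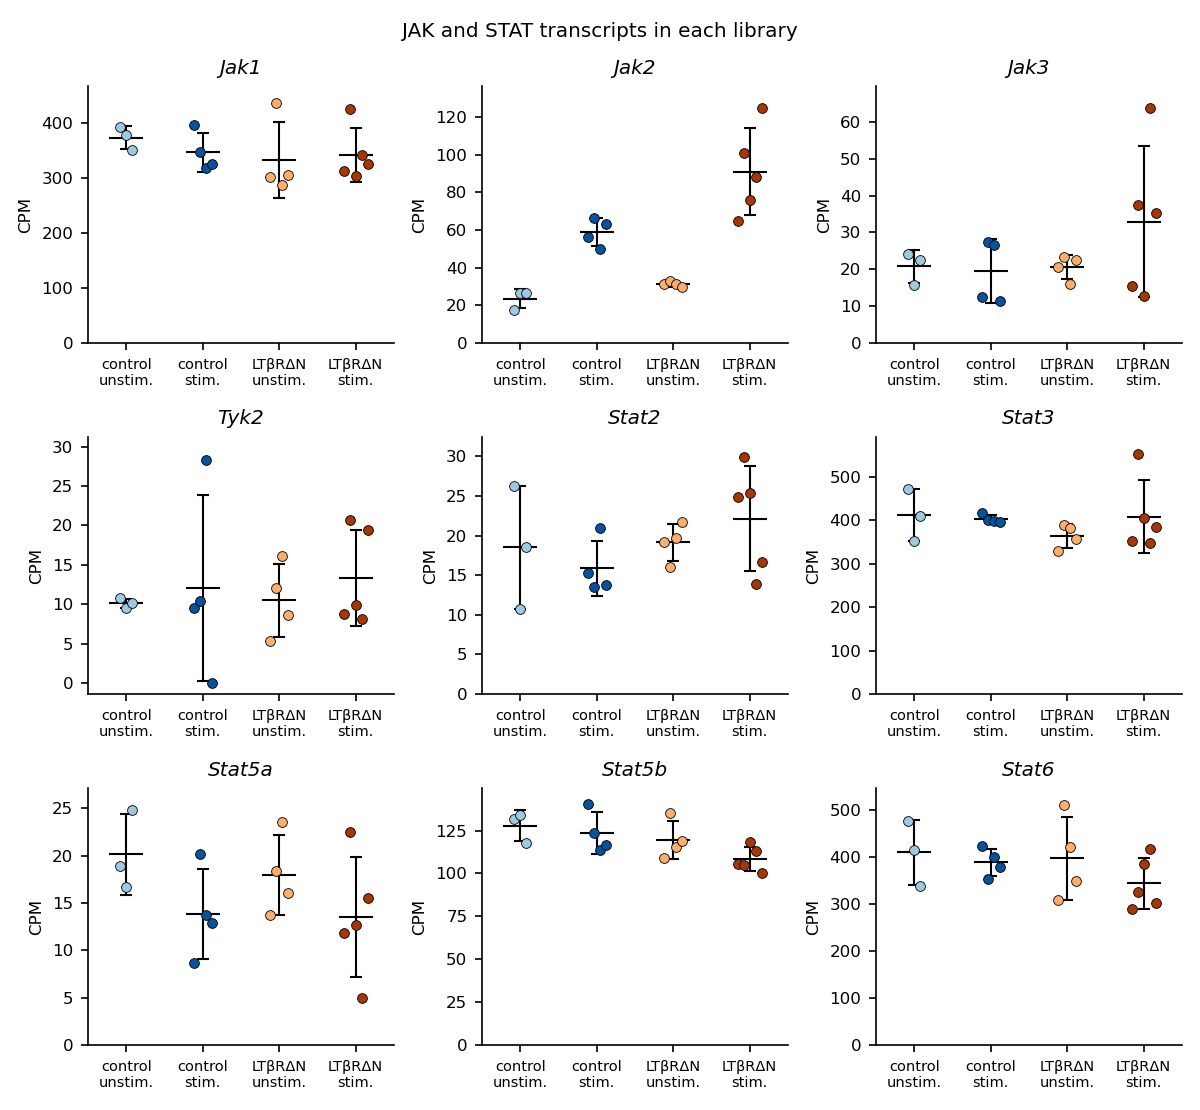
CPM of each JAK and STAT gene (vertical axes, linear) in every library, by group on the horizontal axis, with the group mean and SD as black bars (n = 3, 4, 4 and 5 from left to right). Jak2 is higher in every stimulated library (49.9 to 124.7 CPM) than in every unstimulated one (17.7 to 32.8 CPM), whereas in the other 8 panels the stimulated and unstimulated libraries overlap.

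Between stimulated and unstimulated neutrophils, Jak2 rose in both genotypes and the other 8 genes did not pass the test in either. Jak2, the kinase on which the receptors for GM-CSF, erythropoietin and thrombopoietin depend, was at 17.7, 26.5 and 26.7 CPM in the unstimulated and at 56.1, 66.7, 49.9 and 63.0 CPM in the stimulated control libraries. In LTβRΔN neutrophils it was at 31.2, 32.8, 31.5 and 29.5 CPM without and at 64.8, 101.2, 76.1, 88.5 and 124.7 CPM with stimulation. The lowest stimulated library of either genotype was thus above the highest unstimulated library of both. In control neutrophils the mean was 23.6 ± 5.12 CPM (SD, n = 3) without and 58.9 ± 7.43 CPM (SD, n = 4) with stimulation, and the log2 fold change was 1.32 with a standard error of 0.24 (95% interval 0.83 to 1.81, edgeR adjusted p = 0.000751). In LTβRΔN neutrophils the means were 31.3 ± 1.34 CPM (SD, n = 4) and 91.1 ± 23.2 CPM (SD, n = 5), and the log2 fold change was 1.55 with a standard error of 0.21 (95% interval 1.11 to 2.00, edgeR adjusted p = 2.22e-05). Averaged over both genotypes the fold was 2.71 (edgeR adjusted p = 5.31e-07).

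Of all 9213 genes tested, 3.48% were called in control neutrophils, 3.73% in LTβRΔN neutrophils and 6.73% over both genotypes (4.82% higher and 1.91% lower). The stimulated and unstimulated groups did not overlap for 12.7% of all genes in control neutrophils, for 7.28% in LTβRΔN neutrophils and for 3.3% over all libraries. The share for the JAK and STAT genes was 1 of 9 in each case. Their median log2 fold change was -0.08 in control and 0.17 in LTβRΔN neutrophils, beside -0.02 and -0.03 over all genes. Scaling by library totals alone lowered the median of all genes over both genotypes from -0.04 to -0.25, and the share of higher genes among those called from 71.6% to 27.2%. With that scaling Jak2 was called at 1.07 in control neutrophils, where the median of all genes lay at -0.27.

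The call for Jak2 was lost when the index code in the library names (S520 in 6 and S521 in 10 libraries) was added as a covariate, with log2 fold changes of 1.14 in control (edgeR adjusted p = 0.211), 1.28 in LTβRΔN (edgeR adjusted p = 0.442) and 1.21 over both (edgeR adjusted p = 0.194). All stimulated libraries carry S521 and all unstimulated ones but control replicate 3 carry S520. In LTβRΔN neutrophils, index and treatment therefore cannot be told apart. The index effect in that fit came from unstimulated control replicate 3 against the other unstimulated control libraries. It was carried over to LTβRΔN neutrophils, so 1.28 is not an estimate from LTβRΔN libraries alone. Within S521, Jak2 was at 26.7 CPM in unstimulated control replicate 3 and at 49.9 to 66.7 CPM in the 4 stimulated control libraries.

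**Figure D2:**
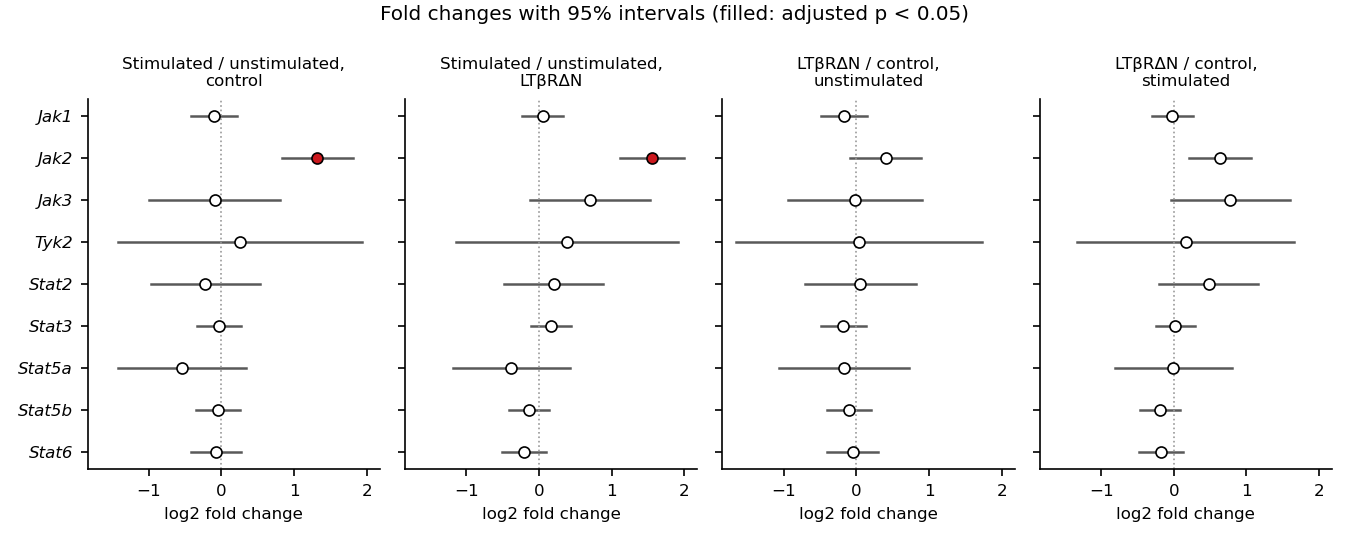
Log2 fold changes (horizontal axes) of the 9 genes with 95% intervals from edgeR, for stimulation in each genotype and for genotype in each treatment group; filled points have an adjusted p under 0.05. Only Jak2 is filled, at 1.32 and 1.55 in the left panels, and the intervals of Jak3, Tyk2 and Stat5a are the widest.

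Jak1, which pairs with gp130 and the interferon and common gamma chain receptors, is the most abundant kinase of the family here. It was at 392, 377 and 351 CPM in the unstimulated and at 397, 348, 318 and 325 CPM in the stimulated control libraries. In LTβRΔN neutrophils Jak1 ranged from 288 to 436 CPM without and from 304 to 426 CPM with stimulation. The groups overlapped, and the fold was 0.929 (95% interval 0.748 to 1.15, edgeR adjusted p = 0.931) in control and 1.03 (0.853 to 1.26, edgeR adjusted p = 0.954) in LTβRΔN neutrophils. A rise of the size seen for Jak2 lay outside both intervals.

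The number of Jak2 reads per 100 Jak1 reads compares both kinases within a library and needs no scaling between libraries. It was 4.52, 7.02 and 7.61 in unstimulated and 14.1, 19.2, 15.7 and 19.4 in stimulated control neutrophils. LTβRΔN libraries gave 10.4, 7.52, 10.9 and 9.68 without and 20.7, 23.8, 25.1, 25.9 and 38.4 with stimulation. The ratio was 2.72-fold higher with stimulation in control neutrophils (exact two-sided permutation p = 0.0286, the smallest possible with 4 against 3 libraries) and 2.75-fold higher in LTβRΔN neutrophils (exact permutation p = 0.00794, the smallest possible with 5 against 4). Over the 5 comparisons made with this ratio, the adjusted values were 0.0357 and 0.0198. The ratio was chosen after the values of both genes had been seen, when the Jak2 treatment groups were known not to overlap. Its p-values therefore describe the ratio and add no support to the Jak2 call.

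**Figure D3:**
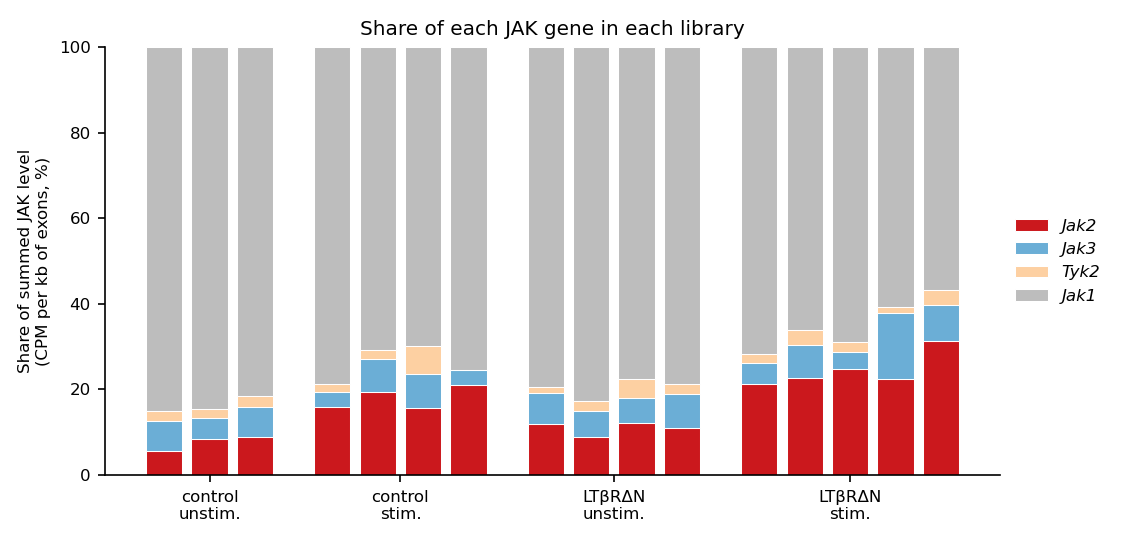
Share of Jak2, Jak3, Tyk2 and Jak1 in the summed level of the 4 kinase genes (vertical axis, percent of CPM per kilobase of exons) in each library, 1 bar per library. Jak1 takes the largest share in each bar, and the Jak2 share reaches 5.52 to 12.2% in unstimulated and 15.7 to 31.3% in stimulated libraries.

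Expressed as a share of all JAK transcripts per kilobase, in control neutrophils Jak2 made up 7.65 ± 1.86% (SD, n = 3) without stimulation and 18.1 ± 2.61% (SD, n = 4) with it. In LTβRΔN neutrophils the shares were 10.97 ± 1.44% (SD, n = 4) and 24.5 ± 4.02% (SD, n = 5). The share of Jak1 was 83.7% without and 73.7% with stimulation in control and 79.6% and 64.9% in LTβRΔN neutrophils, while its own level did not pass the test. These shares are a description and carry no test of their own.

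Jak3 and Tyk2, the other two kinases, were measured with less precision. Jak3, the kinase of the common gamma chain, was at 24.0, 15.7 and 22.6 CPM in the unstimulated and at 12.4, 27.5, 26.7 and 11.5 CPM in the stimulated control libraries, and the groups overlapped (log2 fold change -0.10, 95% interval -1.002 to 0.81). In LTβRΔN neutrophils it ranged from 16.1 to 23.2 CPM without stimulation and was at 15.6, 37.5, 12.7, 63.8 and 35.3 CPM with it. Both below and above the unstimulated range lay stimulated libraries, and the log2 fold change was 0.70 (95% interval -0.13 to 1.52, edgeR adjusted p = 0.518). Without the highest library, replicate 4, it was 0.33, and without the lowest, replicate 3, it was 0.89. The T and NK cell markers summed to 8.53 CPM in replicate 4, near the top of the 5.69 to 8.72 CPM of its group. Their part in its Jak3 level was not tested. Of the annotated exon bases of Jak3, 404 (7.55%) are shared with Insl3 on the same strand, so that reads there could belong to either gene.

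Tyk2, a kinase of the interferon and IL-12 receptors, was at 10.7, 9.52 and 10.1 CPM in the unstimulated control libraries. In the stimulated ones it was at 9.46, 10.4 and 28.3 CPM in replicates 1 to 3 and had 0 counts in replicate 4, against 286 counts in replicate 3. A count of 0 in that library allows up to 0.375 CPM, a limit for counting error only. The log2 fold change was 0.26 (95% interval -1.42 to 1.93, edgeR adjusted p = 0.973) and ran from -0.62 without replicate 3 to 0.68 without replicate 4, so its direction rested on single libraries. In LTβRΔN neutrophils Tyk2 ranged from 5.26 to 16.1 CPM without and from 8.08 to 20.7 CPM with stimulation, with a log2 fold change of 0.39 (95% interval -1.14 to 1.91). Replicate 3 also had the highest platelet and immature neutrophil marker sums (208 and 764 CPM), and their part in its Tyk2 level was not tested. An antisense gene, 1700084C06Rik, covers 554 exon bases of Tyk2 (8.07%), and whether the counting used strand is not given in the sources used here.

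Stat3, activated after IL-6 and G-CSF in neutrophils, was at 473, 352 and 410 CPM in the unstimulated and at 417, 400, 399 and 395 CPM in the stimulated control libraries. The LTβRΔN libraries were at 328, 390, 382 and 356 CPM without and at 351, 552, 406, 348 and 384 CPM with stimulation. The groups overlapped in both genotypes, and LTβRΔN stimulated replicate 2 stood above all other libraries. The fold of Stat3 was 0.978 (95% interval 0.791 to 1.21) in control and 1.12 (0.931 to 1.36) in LTβRΔN neutrophils, with edgeR adjusted p = 0.985 and 0.699.

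Stat5b and Stat5a, near-identical proteins that act after GM-CSF, lie side by side on chromosome 11 and differed in level. Stat5b was at 132, 134 and 118 CPM in unstimulated and at 141, 124, 114 and 116 CPM in stimulated control neutrophils, and between 100 and 135 CPM in all LTβRΔN libraries. Its coefficient of variation over all 16 libraries was 9.90%, the smallest of the 9 genes, and its fold with stimulation was 0.966 (95% interval 0.783 to 1.19) in control and 0.909 (0.751 to 1.10) in LTβRΔN neutrophils. Stat5a had from 11 to 248 counts per library, and its values were 18.9, 16.7 and 24.8 CPM without and 8.65, 20.2, 13.7 and 12.9 CPM with stimulation in control neutrophils. In LTβRΔN neutrophils Stat5a ranged from 13.8 to 23.5 CPM without and from 4.94 to 22.5 CPM with stimulation. Its log2 fold changes of -0.54 (95% interval -1.43 to 0.34) and -0.38 (-1.19 to 0.42) did not pass the test (edgeR adjusted p = 0.771 and 0.804), and a fall to 0.372 of the unstimulated control level lay at the edge of the interval. Of the 50-base windows of annotated Stat5a exons, 8.21% also occur in Stat5b, and 11% of those of Stat5b in Stat5a, so counts of the pair could be split or lost between them.

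Stat6 was at 477, 416 and 339 CPM in the unstimulated and at 423, 353, 400 and 380 CPM in the stimulated control libraries, and from 289 to 511 CPM in LTβRΔN libraries. The groups overlapped, and the log2 fold change was -0.08 (95% interval -0.42 to 0.27) in control and -0.20 (-0.51 to 0.10) in LTβRΔN neutrophils, with edgeR adjusted p = 0.957 and 0.668. Under scaling by library totals alone it was called over both genotypes at -0.36 (edgeR adjusted p = 0.0448), where the median of all genes lay at -0.25. Stat2 ranged from 10.8 to 30.0 CPM over all libraries, with log2 fold changes of -0.22 (95% interval -0.97 to 0.53) in control and 0.20 (-0.48 to 0.89) in LTβRΔN neutrophils, with edgeR adjusted p = 0.940 and 0.906. For Jak1, Stat3, Stat5b and Stat6, which had at least 168 counts in every library, the 95% interval of the control comparison lay within 0.5 on the log2 scale on either side of 0. For Jak3, Tyk2, Stat2 and Stat5a it reached beyond 0.5 on at least one side.

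Comparing LTβRΔN with control neutrophils asks whether the receptor's deletion went along with other levels of these genes. None of the 9 was called by edgeR in unstimulated or in stimulated neutrophils, where 0.0217% of all genes (2 of 9213) were called in each, and DESeq2 called 0 of the 9 in both. At an unadjusted p under 0.05 there were 0 of 9 without stimulation, beside 2.8% of all genes, and 1 of 9, Jak2, with stimulation, beside 6.41% of all genes. Jak2 was higher in all 4 unstimulated LTβRΔN libraries (29.5 to 32.8 CPM) than in the 3 control libraries (17.7 to 26.7 CPM), and it was the only one of the 9 whose groups did not overlap, beside 5.71% of all genes. The log2 difference was 0.40 (95% interval -0.09 to 0.89, edgeR adjusted p = 1), and with single libraries left out it ran from 0.23 to 0.50. In stimulated neutrophils Jak2 was higher by 0.64 (95% interval 0.21 to 1.06, unadjusted p = 0.00481 and adjusted p = 0.636 by edgeR), and LTβRΔN replicate 1, at 64.8 CPM, lay below control replicate 2, at 66.7 CPM. Groups without overlap made up 1.31% of all genes there, and 0 of the 9 genes.

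Relative to Jak1, Jak2 was 1.54-fold higher in stimulated LTβRΔN than in stimulated control neutrophils. The 5 LTβRΔN libraries (20.7 to 38.4 Jak2 reads per 100 Jak1 reads) lay above the 4 control libraries (14.1 to 19.4). Without stimulation the ratio was 1.53-fold higher, and the groups overlapped. Both genotype ratios were among the 5 comparisons tested, with exact permutation p = 0.0159 (adjusted 0.0265) with stimulation and 0.0857 without it. Since the ratio was chosen after the values of both genes had been seen, these p-values only describe it and support no genotype difference. Stimulated LTβRΔN libraries were also the shallowest group, with a median of 2408608 counts. Without the 3 libraries under 2000000 counts, a choice made after seeing the data, the Jak2 log2 difference in CPM between stimulated genotypes was 0.83. That choice removed stimulated LTβRΔN replicates 1 and 3, which had the lowest Jak2 levels of their group (64.8 and 76.1 CPM). Of the 18 alternatives run it gave the highest difference, and leaving out stimulated LTβRΔN replicate 5 gave the lowest, 0.50. The adjusted p of the Jak2 difference between stimulated genotypes was at least 0.237 under each of the 18, the lowest being that of DESeq2.

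Between genotypes the other kinases gave log2 differences in stimulated neutrophils of -0.02 for Jak1 (95% interval -0.30 to 0.26), 0.78 for Jak3 (-0.04 to 1.59) and 0.16 for Tyk2 (-1.33 to 1.65). Jak3 was at 0.41 without LTβRΔN stimulated replicate 4 and at 0.98 without control stimulated replicate 2. Among the STAT genes, Stat3 was at 0.02 (-0.25 to 0.29), Stat5b at -0.19 (-0.46 to 0.08), Stat6 at -0.18 (-0.48 to 0.13), Stat5a at -0.0045 (-0.81 to 0.80) and Stat2 at 0.48 (-0.20 to 1.16). Without stimulation, the 8 genes other than Jak2 had differences from -0.18 for Stat3 to 0.06 for Stat2.

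Whether stimulation changed the genes differently in the 2 genotypes was tested by the interaction term. It called 0 of the 9 genes and 0% of all genes in edgeR, where 342 of 9213 genes had an unadjusted p under 0.05 and none of them was a JAK or STAT gene examined here. DESeq2 also called 0. For Jak2 the interaction was 0.23 on the log2 scale (95% interval -0.41 to 0.87), and the interval for Jak3 ran from -0.43 to 2.01.

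Around the kinases, a list of 76 other genes of the pathway was read, of which 75 were in the table and 59 passed the filter. With stimulation 8 rose and 0 fell in control neutrophils, 9 rose and 0 fell in LTβRΔN neutrophils, and 10 rose and 0 fell over both genotypes. Over all genes 3.48%, 3.73% and 6.73% were called in these comparisons, the last made up of 4.82% higher and 1.91% lower. With scaling by library totals alone the last split was 9 higher and 8 lower. With the index code as a covariate, 3 were called over both genotypes, Cish, Il10ra and Socs3, all higher. Between genotypes and for the interaction, 0 of the 59 were called in edgeR.

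Receptors were represented by 22 tested genes, of which 3 rose over both genotypes beside 4.82% of all genes, with a median log2 fold change of 0.07 over the list beside -0.04 over all genes. Il10ra, the ligand-binding chain for IL-10 that is paired with Jak1, rose by 2.28 on the log2 scale over both genotypes and had 130 ± 11.9 CPM (SD, n = 3) without and 733 ± 127 CPM (SD, n = 4) with stimulation in control neutrophils. Il2rg, the common gamma chain that carries Jak3, rose by 1.64, with 14.6 ± 2.46 CPM (SD, n = 3) and 46.0 ± 3.14 CPM (SD, n = 4) in those 2 control groups. Csf2rb, the beta chain of the GM-CSF receptor that carries Jak2, rose by 0.60, with 269 ± 7.56 CPM (SD, n = 3) and 420 ± 71.9 CPM (SD, n = 4).

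Feedback inhibitors, a list of SOCS proteins that act at the receptors and kinases, PIAS proteins that act on STAT proteins, and Usp18, gave 3 risen genes of 12 tested beside 4.82% of all genes, with a list median of -0.02. Socs3, which acts on gp130 and Jak2, rose by 3.81 over both genotypes, and control neutrophils had 1059 ± 476 CPM (SD, n = 3) without and 17236 ± 2467 CPM (SD, n = 4) with stimulation. Cish rose by 8.33 and Socs1, an inhibitor of JAK kinases, by 2.13 over both genotypes. Phosphatases and adaptors gave 3 risen genes of 18 beside 4.82% of all genes, all tyrosine phosphatases. Ptpn1 and Ptpn2, whose products remove phosphate from JAK proteins, rose by 0.65 and 1.02 over both genotypes. Ptpn2 was called in control (1.31) and not in LTβRΔN neutrophils (0.73, edgeR adjusted p = 0.175). Ptpn11, the phosphatase SHP2, had at most 17.4 CPM in any library, and its rise of 1.43 over both genotypes joined 0.39 in control (edgeR adjusted p = 0.933) with 2.47 in LTβRΔN neutrophils (edgeR adjusted p = 0.0120). With scaling by library totals alone Ptpn11 was not called over both genotypes.

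Of 7 other factors, Crebbp, a coactivator bound by STAT proteins, rose by 0.92 over both genotypes, and the list median was 0.21 beside -0.04 over all genes. Crebbp was called in LTβRΔN neutrophils (1.14, edgeR adjusted p = 0.00914), at 18.7 ± 2.64 CPM (SD, n = 4) without and 40.5 ± 7.46 CPM (SD, n = 5) with stimulation. It was not called in control neutrophils (0.71, edgeR adjusted p = 0.275), at 21.9 ± 4.42 CPM (SD, n = 3) and 35.7 ± 9.25 CPM (SD, n = 4).

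**Figure D4:**
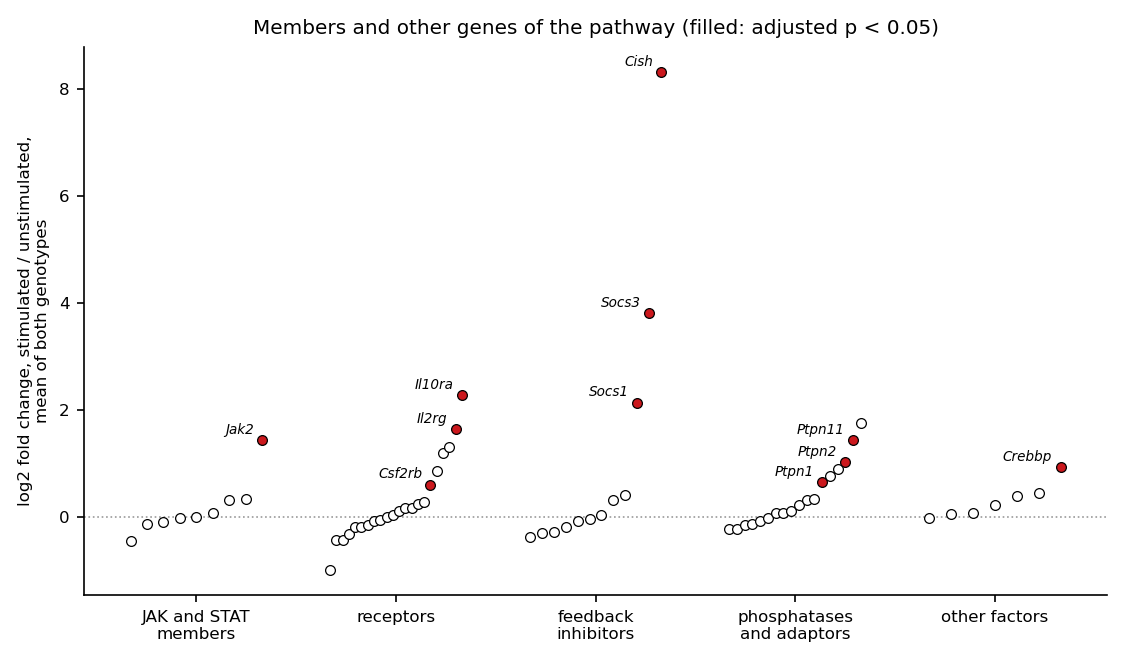
Log2 fold change of stimulated over unstimulated libraries, averaged over both genotypes (vertical axis), for the 9 JAK and STAT genes and the 59 other tested genes of the pathway in 4 lists (horizontal axis, sorted within a list). Filled, named points have an edgeR adjusted p under 0.05: 10 genes besides Jak2, all above 0.

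The 3 tested genes whose log2 CPM followed that of Jak2 most closely over the 16 libraries were Cdkn1a, the cell cycle inhibitor p21 (Pearson's r = 0.93), Grk1 (r = 0.93) and Aplf, a DNA repair factor (r = 0.92). These are descriptions over libraries that share the treatment groups. Grk1 had a mean of 1.70 CPM. Log2 fold changes with stimulation were 2.61 in control and 1.82 in LTβRΔN neutrophils for Cdkn1a, and 1.19 and 1.08 for Aplf.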

How the data were processed

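The groups of the 16 libraries of blood neutrophils follow the genotype and treatment given in the sample labels, and columns were matched by name. The deposited values are raw counts, 1 whole number for each symbol and library, which the authors did not normalize. The submitters' processing notes name mm10, Bowtie 1.0.0, TopHat 1.4.1 and HTSeq 0.7.1, with no role for each. Symbols and gene lists were chosen with earlier results of these data known. Genes were kept by filterByExpr (minimum count 10, minimum total 15), and all libraries entered 1 edgeR 4.0.16 quasi-likelihood fit in R 4.3.3 with TMM factors and 1 coefficient per group. Benjamini-Hochberg adjusted p-values under 0.05 over all tested genes counted as called. The test was also run on simulated independent libraries. These held no effect of index code or of pairs, so that run cannot bear on either. Alternatives included DESeq2 1.42.0, other scalings and filters, the index code, the column number as a block and each library left out in turn. All 9 genes are named whatever their values. Of the pathway lists, up to 3 called genes each with the smallest adjusted p over both genotypes are named, besides Cish, Ltbr and the 3 genes most like Jak2. Within-group library pairs differed by more than sampling noise (chi-square per degree of freedom 6.82 to 49.4). CPM use TMM factors. Log2 fold changes come from edgeR with a 95% interval, and PCR reads without molecular identifiers are not independent molecules, so the limit for a count of 0 covers counting error only. Promoters were taken from RefSeq windows and exons from GENCODE M21. Protein sequences were not used here. Counts of the pathway lists leave out 1 gene that is not reported here.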

Additional observations from a re-analysis of the deposited data

Results flagged for a closer look

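In 27 groups of 4 or 5 libraries (9 genes in 3 groups), Dixon's ratio exceeded its 95% critical value in 2, beside 1.35 expected by chance. Stat3 in stimulated LTβRΔN replicate 2 was at 551.6 CPM, with the nearest library of its group at 405.8 CPM. Jak1 in unstimulated LTβRΔN replicate 2 was at 436.2 CPM, with the nearest at 305.2 CPM, and this library had the smallest total of all, 1094335 counts. Without it, the Jak1 log2 difference between genotypes in unstimulated neutrophils was -0.32 in place of -0.17.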

How the results depend on the processing

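Jak2 was called with stimulation under all alternatives but the index covariate, which left 0 of the 9 genes called in control, in LTβRΔN and over both, with edgeR adjusted p from 0.194 to 0.442. Its adjusted p was otherwise at most 0.0137 in control and 0.00024 in LTβRΔN neutrophils with single libraries left out. The log2 fold change of Jak2 lay between 1.07 and 1.41 in control, 1.28 and 1.77 in LTβRΔN and 1.21 and 1.54 over both. The values of 1.28 and 1.21 came with the index covariate, whose effect was estimated from control libraries only. Scaling by library totals alone gave 2 called genes over both genotypes, Jak2 and Stat6. Calls over all genes for stimulation over both genotypes were 1230 with that scaling and 147 with the index covariate, in place of 620. Between genotypes 0 of the 9 were called in any alternative edgeR or DESeq2 fit. The ratio of Jak2 to Jak1 reads, chosen after seeing the values, is not among these fits. DESeq2 called 14 genes in stimulated and 4 in unstimulated neutrophils over the whole table, in place of 2 each.

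The numbers in the column names joined 7 unstimulated and stimulated pairs, whose deviations correlated by 0.021 to 0.069. This was under a limit of 0.1 that was set here for treating them as pairs. In 6 of 7 pairs both libraries nevertheless correlated best with their own number. That is a hint of pairing from the data only, which the main fit and the permutation tests leave out. With a replicate block on that number Jak2 was called in each stimulation comparison, at 1.41 in control and 1.38 in LTβRΔN neutrophils. Under the block the signs changed for Tyk2 in control (-1.33) and over both (-0.58) and for the interactions of Stat5a (-0.00028) and Jak2 (-0.029). Genotype differences could not be estimated under it.

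Other signs that changed belong to genes that were not called, and the cause was not tested. Stat2 over both genotypes became 0.0046 with DESeq2 size factors, 0.0070 with at least 10 counts in every library and 0.0037 in DESeq2. For Stat5a between stimulated genotypes these 3 gave 0.0077, 0.018 and 0.017, upper-quartile factors 0.014, library totals 0.0084 and the removal of libraries under 2000000 counts 0.084. Library totals gave -0.017 for Stat3 and -0.14 for Jak1 in LTβRΔN, -0.15 for Stat3 over both and -0.0078 for Tyk2 between unstimulated genotypes. Upper-quartile factors gave 0.0088 for Jak1 between stimulated genotypes. The index covariate gave, for control, LTβRΔN and both, 0.072, 0.039 and 0.055 for Stat5b and 0.20, 0.19 and 0.20 for Stat6. It also gave 0.084 for Jak1 over both, 0.011 for Stat5a and 0.045 for Jak3 between unstimulated genotypes and -0.016 for the Stat5a interaction. Without the libraries under 2000000 counts Jak1 was at 0.092 over both and 0.072 between stimulated genotypes, Tyk2 at -0.030 between unstimulated genotypes and the Stat6 interaction at 0.034.

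Leaving out 1 library in turn turned the sign of these uncalled values. In control, Stat2 ran from -0.50 to 0.12, Stat3 from -0.14 to 0.077, Stat6 from -0.20 to 0.041, Jak3 from -0.30 to 0.092 and Tyk2 from -0.62 to 0.68. Jak1 ran from -0.044 to 0.20 in LTβRΔN and from -0.074 to 0.044 over both, where Stat2 ran from -0.15 to 0.16 and Tyk2 from -0.12 to 0.53. Between unstimulated genotypes Stat2 ran from -0.21 to 0.40, Stat5a from -0.33 to 0.0083, Stat6 from -0.18 to 0.066, Jak3 from -0.18 to 0.098 and Tyk2 from -0.27 to 0.27. Between stimulated genotypes Stat3 ran from -0.12 to 0.075, Stat5a from -0.30 to 0.23, Jak1 from -0.11 to 0.053 and Tyk2 from -0.25 to 1.04. The interactions of Stat5a, Stat6 and Tyk2 ran from -0.13 to 0.39, from -0.24 to 0.013 and from -0.28 to 1.01.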
